A study of Mus musculus with 3 samples.

Results

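The mRNAs recovered with an antibody against YB-1 were set against those recovered with control IgG, in extracts of C2C12 cells. C2C12 is a mouse myoblast line whose cells stop dividing and fuse into multinucleated muscle cells once serum is lowered. The method was RIP-seq, in which an antibody on beads pulls down a protein with the RNA attached to it and that RNA is sequenced. A gene was taken up when its level in the YB-1 library was 10 normalized counts or more, where a normalized count is a read count divided by the authors' size factor for that library. This left 11887 of 15403 genes (77.2%), and the ratio of the YB-1 level to the IgG level was computed for each of them on the log2 scale.

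There were 3 libraries, 1 for an antibody against YB-1, 1 for an antibody against HuR and 1 for control IgG. By the labels, all used extract of the same line at day 2 after the change to medium with 2% horse serum, 500 µg of extract for each and the same amounts of antibody and beads. No genotype or drug distinguishes the groups, all 3 column names end in siCtl, which the labels do not explain, and a library of unprecipitated RNA was not analysed here. The series asks which mRNAs YB-1 and HuR bind in muscle cells. With 1 library per antibody no difference has a replicate check, so no test was made and no gene is called. Each fold is a comparison of 2 libraries, given with its exact 95% Clopper-Pearson interval, which covers counting error only.

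YB-1, the product of Ybx1, is a cold-shock domain protein that coats many mRNAs in the cytoplasm, packages them into particles and affects their translation and stability. It is known to bind single-stranded RNA broadly, with a preference for the 4 bases CAUC, written CATC in DNA letters. HuR, the product of Elavl1, binds AU-rich and U-rich stretches in 3' UTRs and is known for stabilising the mRNAs of muscle differentiation factors, among them myogenin. In muscle cultures the first days after the loss of serum are the time of cell cycle exit, fusion and assembly of the first sarcomeres, which contain the embryonic and newborn isoforms of the contractile proteins.

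To show the motif in transcripts that recur below, the 30 bases with the most CATC in the 3' UTR are printed 5' to 3' on the mRNA strand for 4 genes, from the GENCODE M21 transcript on GRCm38, with CATC in capitals. The first was the gene with the highest ratio to IgG among well-measured genes, the next the mRNA of YB-1 itself, then myogenin, and the last the gene with the lowest ratio.
Tmsb10: ccaccccgcccCATCATCtccaagaccccc
Ybx1: CATCtctacCATCATCcggtttggtCATCc
Myog: tggtgtcaaaagcCATCacttctgtagcag
Xirp2: aagaccccgggatCATCgctaaccttttga
The windows lie at bases 29 to 58 of the 265-base 3' UTR of Tmsb10 (chr6:72957347-72958748, minus strand), 13 to 42 of the 418 bases of Ybx1 (chr4:119277981-119294604, minus strand), 41 to 70 of the 753 bases of Myog (chr1:134289989-134292548, plus strand) and 55 to 84 of the 355 bases of Xirp2 (chr2:67446002-67526614, plus strand). The coordinates are those of the genes. The motif was thus present in transcripts at both ends of the range of ratios. It is common: 84.4% of the 11405 3' UTRs of 30 bases or more held at least 1 CATC on the mRNA strand.

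Depth was 39112714 reads with YB-1, 24797504 with HuR and 10630155 with IgG, so 1 read was worth 0.531, 0.862 and 2.29 normalized counts in that order. Of 12 markers of the muscle lineage, 11 reached 10 in the YB-1 library, all but Myf5 at 8.50. The 12 summed to 711431 normalized counts with YB-1, 727308 with HuR and 1454923 with IgG, so their sum too was highest with IgG. Of the 11, 6 were higher by 2-fold or more with YB-1 than with IgG and 3 lower. Among all genes 19.6% were higher and 24.6% lower. The library labelled IgG stood apart, with higher sums of endothelial, adipocyte, blood and immune markers than either antibody library. Not every list went this way: neuronal and glial markers summed to 5028 with YB-1, 15696 with HuR and 6329 with IgG. Smooth muscle and pericyte markers summed to 401240, 196937 and 183205 in that order, and those in no other list to 8549, 6525 and 18229. Fibroblast markers (40039, 39633 and 60371) and epithelial markers (330, 475 and 861) were highest with IgG. The 18 endothelial markers in the table summed to 655 normalized counts with YB-1, 353 with HuR and 21781 with IgG, and 13, 16 and none of them were under 10. Ramp2, picked out after its values were seen, made up most of the antibody sums, with 423 with YB-1, 318 with HuR and 473 with IgG. The 15 adipocyte markers summed to 473 with YB-1, 772 with HuR and 102496 with IgG, most of the IgG sum from Car3 and Cd36, which the lists of fibre and fatty acid genes also hold. The other 13 summed to 256 with YB-1, 397 with HuR and 20792 with IgG. The 19 blood and immune markers summed to 18.1 with YB-1, 41.4 with HuR and 1397 with IgG. At 0 in the YB-1 library were 8 of the endothelial, 8 of the adipocyte and 17 of the immune markers. Chosen after their values were seen, the endothelial adhesion receptor Pecam1 was at 0.531 with YB-1, 0 with HuR and 2818 with IgG, and the fat cell hormone Adipoq was at 0, 0 and 216. The 24 genes of mature muscle fibres summed to 170942 with YB-1, 134676 with HuR and 1912502 with IgG. In bulk libraries, more cells of a type and more RNA per cell cannot be told apart, and the part of this difference in make-up in the results was not tested. The labels give extract of C2C12 cells as the source of the library labelled IgG, and its origin beyond the labels was not tested. Every ratio to IgG below is a ratio to that library, with this make-up. The ratio of YB-1 to HuR is given beside the main results as the version without IgG.

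YB-1 over IgG was centred near 0 and spread far more widely to the low side. The median log2 ratio of the 11887 genes was 0.04, the quartiles were -0.98 and 0.83, and the 95th percentile was 1.82. The extremes were -12.73 and 6.02. At least 2-fold higher in YB-1 were 2325 genes (19.6%), and lower by 2-fold or more 2925 (24.6%). The counting interval lay wholly past 2-fold for 1337 of the higher and 2405 of the lower genes. At 8-fold the split was 76 higher against 595 lower, and at 32-fold 2 higher against 135 lower. The 2325 higher genes held 42.8% of the reads of the YB-1 library and 11.1% of those of the IgG library. The 2925 lower genes held 10.2% of YB-1 reads and 50.5% of IgG reads. Scaling to total reads shifted the all-gene median by 0.23 and recentring on ribosomal protein genes by -1.19, and the share of higher genes among both, 44.3%, became 56.4% and 4.56%. Since a scaling moves all genes alike, lists are read against the all-gene median. Counts within a list are to be read beside the 19.6% higher and 24.6% lower among all genes. For the ratio to HuR, these shares are 13.6% and 16.5%. Of the genes at 0 in IgG, 145 passed the level of 10 in YB-1, and 75 of these count among the higher ones by a bound set at 3 IgG reads.

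Ratios were higher at higher levels in the YB-1 library. The median log2 ratio was -0.78 for the 1128 genes between 10 and 30 normalized counts, 0.04 for the 3479 genes between 300 and 1000, and 1.56 for the 74 genes at 30000 or more, of which 49 were higher by 2-fold or more and 4 lower by 2-fold or more. The level stands in the ratio itself, so this is a description only. At the threshold of 10, the 48 genes just inside, with 10.1 normalized counts in YB-1, had a median log2 ratio of -1.11, and the 52 genes just outside, with 9.56, had a median of -0.26.

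**Figure D1:**
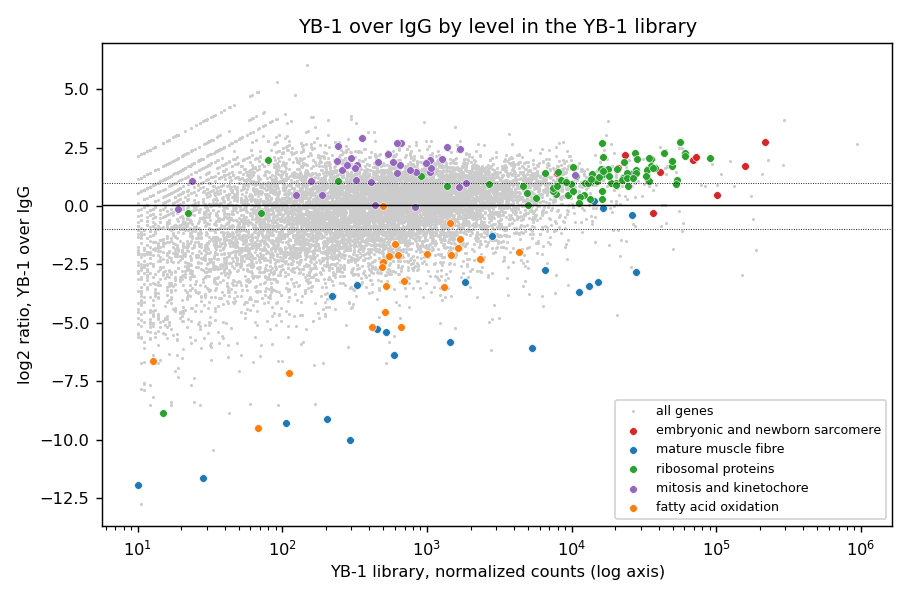
Log2 ratio of YB-1 over IgG (vertical axis) against the level in the YB-1 library in normalized counts (horizontal log axis) for 11887 genes, 1 point per gene; the solid line is the all-gene median of 0.04 and the dotted lines mark 2-fold. Embryonic and newborn sarcomere genes, ribosomal protein genes and mitosis genes lie mostly above the median line, while genes of mature fibres and of fatty acid oxidation reach down to -11.95 and -9.49.

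The highest levels in the YB-1 library were those of H19, Tmsb10, Gapdh, Tpt1, Acta2, Eef1a1, Acta1, Tpm2, Des and Myh3. H19, an imprinted long noncoding RNA of fetal muscle, had 930823 normalized counts with YB-1, 369789 with HuR and 145813 with IgG. It was 6.38-fold above IgG (6.33 to 6.43) and the most abundant transcript of the YB-1 library. Per kilobase of transcript, the highest level among protein-coding genes was that of Tmsb10, with 424582 normalized counts per kb in YB-1 against 33459 in IgG. Tmsb10 encodes thymosin beta-10, a small protein that binds actin monomers. Among these 10 transcripts, Acta1 and Tpm2 alone were lower with YB-1 than with IgG on the authors' scaling. Acta1, skeletal alpha-actin, had 189406 normalized counts with YB-1, 103252 with HuR and 689855 with IgG. Tpm2, beta-tropomyosin, had 177938 with YB-1, 111627 with HuR and 259911 with IgG.

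Among the 6063 genes whose YB-1 and IgG levels averaged 500 or more, the 15 highest log2 ratios to IgG ran from 2.67 to 3.67. Tmsb10 came first, with 292962 normalized counts with YB-1, 66094 with HuR and 23087 with IgG, a 12.7-fold difference from IgG (12.4 to 12.9). Igf2, the fetal insulin-like growth factor that myoblasts secrete as they differentiate, followed with 17762 with YB-1, 9023 with HuR and 1448 with IgG, 12.3-fold above IgG (11.3 to 13.3). Igf2 and H19 are neighbours on chromosome 7 and share imprinting control, and both were among the 15. In both transcripts the YB-1 value was also above that of HuR.

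Smooth muscle actin Acta2, which differentiating myoblasts also make, had 216165 normalized counts with YB-1, 87802 with HuR and 31914 with IgG, a log2 ratio of YB-1 to IgG of 2.76. Mustn1, a small nuclear protein of the musculoskeletal system, had a log2 ratio of 3.05, with 17351 with YB-1, 12918 with HuR and 2097 with IgG. E2f1, the transcription factor of S-phase entry, had 2.76 with 1073 with YB-1, 632 with HuR and 158 with IgG. The rest of the 15 were Dynap (3.57), Gm14635 (3.40), Ngfrap1 (3.09), Car13 (2.78), Gm10653 (2.77), the ribosomal protein genes Rps12 (2.76) and Rpl39 (2.71), the mitochondrial carrier Ucp2 (2.73), the tubulin Tuba1c (2.70) and H19 (2.67), all as log2 ratios. Each was higher with YB-1 than with HuR as well, with log2 ratios of YB-1 to HuR between 0.43 for Mustn1 and 2.15 for Tmsb10.

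Of the 15 lowest ratios, 5 belonged to the list of genes of mature muscle fibres (Ckmt2, Myl3, Myh2, Car3 and Mybpc1). Xirp2, an actin-binding repeat protein of muscle attachment sites, had 10.6 normalized counts with YB-1, 4.31 with HuR and 72379 with IgG, and was 6811-fold below IgG (4409 to 11152). Ckmt2, the mitochondrial creatine kinase of the sarcomere, had 10.1 with YB-1, 5.17 with HuR and 39953 with IgG. Myl3, the slow and ventricular myosin light chain, had 28.2 with YB-1, 9.48 with HuR and 89566 with IgG. In these 3 genes both antibody libraries were at 28.2 or less and the IgG library at 39953 or more.

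Fast IIa myosin heavy chain Myh2 had 293 normalized counts with YB-1, 353 with HuR and 301284 with IgG, and was 1027-fold below IgG (945 to 1119). Lpl, the lipase that frees fatty acids from lipoproteins, had 68.0 with YB-1, 147 with HuR and 48936 with IgG. Myot (-10.44), Car3 (-9.28), Mybpc1 (-9.13), Rpl3l (-8.87), Trdn (-8.86), Ppp1r3c (-8.52), 2310042D19Rik (-8.52), Ndrg2 (-8.52), Sparcl1 (-8.51) and 3425401B19Rik (-8.49) complete the 15, with their log2 ratios to IgG. Rpl3l is the muscle-specific paralog of the ribosomal protein gene Rpl3, and Trdn encodes triadin of the calcium release complex. The YB-1 level of all 15 was 293 or less, and the IgG level 4445 or more. Genes with so low a YB-1 level reach the mean of 500 only through IgG. These bounds thus follow in part from the selection and are a description only.

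The mRNAs of YB-1, of myogenin and of HuR stood at different heights. Ybx1 mRNA had 44148 normalized counts with YB-1, 36771 with HuR and 43225 with IgG, so the YB-1 and IgG levels were within 1.02-fold (1.01 to 1.04). Myog, the transcription factor that commits myoblasts to differentiation, had 45679 with YB-1, 229849 with HuR and 13754 with IgG. It was 3.32-fold above IgG (3.24 to 3.41), and 699 of the 11887 genes had a ratio at or above this one. Elavl1 mRNA had 2847 with YB-1, 13792 with HuR and 1666 with IgG, 1.71-fold above IgG (1.58 to 1.85), a log2 ratio of 0.77 that became -0.42 when recentred on ribosomal protein genes. Myog and Elavl1 were lower with YB-1 than with HuR, with log2 ratios of -2.33 and -2.28.

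Contractile genes listed as typical of embryonic and newborn muscle lay above the all-gene median against IgG. The list of 10 also counts smooth muscle actin Acta2, described above, which had its highest log2 ratio, 2.76. Of the 10, 8 were higher by 2-fold or more with YB-1 than with IgG and none lower by 2-fold or more. The median was a log2 ratio of 1.68. Embryonic myosin heavy chain Myh3 had 158088 normalized counts with YB-1, 172930 with HuR and 47917 with IgG, 3.30-fold above IgG (3.25 to 3.35). Of the others, named here after their values were seen, the newborn myosin Myh8 had 7946 with YB-1, 9229 with HuR and 3020 with IgG, cardiac actin Actc1 had 68453, 39383 and 17563, and cardiac troponin T, Tnnt2, had 72032, 57222 and 16616, in the same order of libraries. Slow troponin C, Tnnc1, had 100940 with YB-1, 58122 with HuR and 73652 with IgG. Slow troponin I, Tnni1, was the single member below IgG, with 36602 with YB-1, 21852 with HuR and 44407 with IgG.

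Genes of mature fibres, a list that also holds enzymes such as Ckmt2, Car3 and Eno3, lay on the other side. Of 24 in the table, 23 reached 10 in YB-1, and of these 19 were lower by 2-fold or more against IgG and 1 higher, and the median was a log2 ratio of -3.68. Beside Myh2, described above, the other myosin heavy chains of adult fibres, picked out after their values were seen, ran from -3.24 for IIx Myh1 (15285 in YB-1, 16568 in HuR, 144415 in IgG) through -3.85 for IIb Myh4 (219, 126 and 3160) to -6.06 for slow Myh7 (5333, 5517 and 356083). The calcium pump Atp2a1 had 27902 with YB-1, 23299 with HuR and 194669 with IgG. Actn3, alpha-actinin of fast fibres, was the exception, with 26015 with YB-1, 15518 with HuR and 9973 with IgG, 2.61-fold above IgG (2.53 to 2.69). Against HuR the same fibre genes had a median log2 ratio of 0.26, beside 0.12 for all genes, with 3 higher by 2-fold or more in YB-1 and none lower. The background for that ratio is 13.6% of genes higher by 2-fold or more and 16.5% lower by 2-fold or more. The low median of the fibre genes thus appeared against IgG, in which they were high, and not against HuR.

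**Figure D2:**
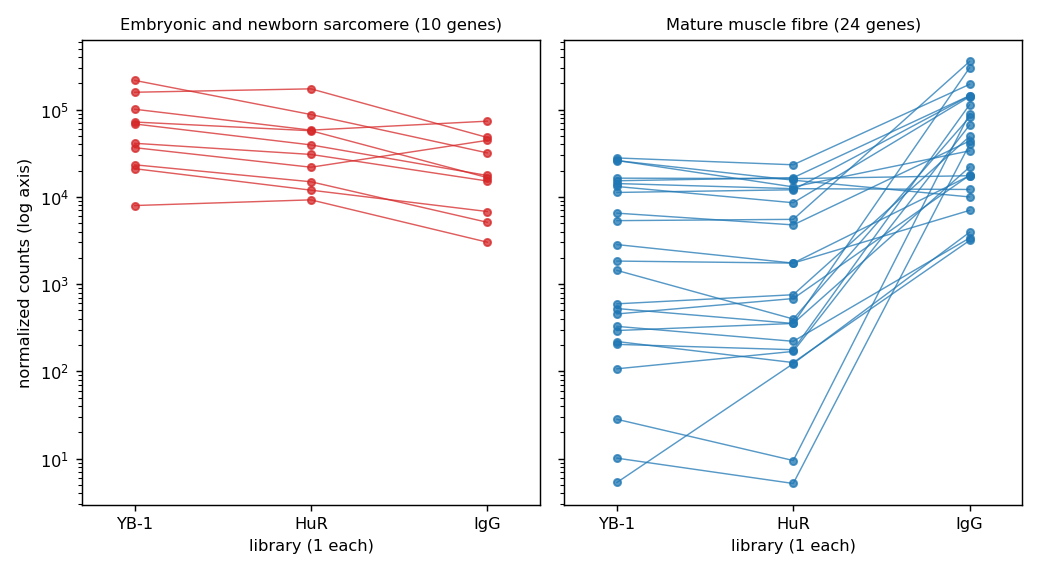
Levels in normalized counts (log axis) of 10 genes listed for embryonic and newborn muscle (left) and 24 genes of mature fibres (right). Values are from the YB-1, HuR and IgG libraries, 1 library each, with 1 line per gene. The 10 on the left include smooth muscle actin Acta2. Most embryonic and newborn genes are lower in IgG, and most mature fibre genes higher in IgG, as far as Ckmt2 with 10.1 in YB-1 and 39953 in IgG.

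Excitation-contraction coupling, the release of calcium from the sarcoplasmic reticulum by the voltage sensor, showed the low pattern with exceptions. Of 19 members at 10 or more in YB-1, 13 were lower by 2-fold or more and 2 higher against IgG, and their median was -2.28. Triadin, Trdn, had 43.0 normalized counts with YB-1, 51.7 with HuR and 20019 with IgG. The calcium channel gamma subunit Cacng1 had 17446 with YB-1, 9082 with HuR and 4268 with IgG, 4.09-fold above IgG (3.90 to 4.29). mRNAs of giant structural proteins were low too: of 24, none was higher by 2-fold or more and 14 were lower, with a median of -1.25. Titin, Ttn, had 20499 with YB-1, 24534 with HuR and 517686 with IgG. Filamin C, Flnc, had 21847 with YB-1, 19431 with HuR and 59756 with IgG, and the microtubule linker Macf1 stood highest among them with a log2 ratio of 0.36. Against HuR, the medians of the 2 lists were 0.20 and -0.06.

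Genes of fusion and of the young neuromuscular junction lay above the all-gene median against IgG, while the fusion genes did not against HuR. Of 18 adhesion and fusion genes, 7 were higher by 2-fold or more with YB-1 than with IgG and none lower, and the median was a log2 ratio of 0.81. Myomaker, listed as Tmem8c, is the membrane protein needed for myoblasts to fuse, and had 37037 normalized counts with YB-1, 22469 with HuR and 9225 with IgG. Integrin beta-1, Itgb1, had 23757 with YB-1, 58128 with HuR and 13048 with IgG. Among 11 genes of the neuromuscular junction, 6 were higher by 2-fold or more and 3 lower, median 1.06 that became -0.13 when ratios were recentred on ribosomal protein genes. The subunits of the fetal acetylcholine receptor were high: Chrna1 had 40850 with YB-1, 36111 with HuR and 7166 with IgG, 5.70-fold above IgG (5.50 to 5.91). Chrng, the gamma subunit that is exchanged after birth, had 11520 with YB-1, 7384 with HuR and 3798 with IgG. Acetylcholinesterase, Ache, had 76.5 with YB-1, 10.3 with HuR and 218 with IgG. Against HuR the fusion median was 0.02, with none higher by 2-fold or more and 2 lower, and the junction median 0.34, with 1 higher and 1 lower, beside 0.12 for all genes.

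Myogenic and partner transcription factors did not share a direction. Of 19 at 10 or more, 5 were higher by 2-fold or more and 7 lower with YB-1 than with IgG, and the median log2 ratio was 0.35. Myod1, the factor that sets the myoblast lineage, had 6960 normalized counts with YB-1, 7165 with HuR and 1732 with IgG. Cdkn1a, the p21 inhibitor that holds differentiating cells out of the cycle, is not a transcription factor but was counted in this list. It was also counted among the growth arrest genes below, and had 45429 with YB-1, 45117 with HuR and 14172 with IgG. Mef2a, a partner of the myogenic factors, lay at the low end with 66.9 with YB-1, 70.7 with HuR and 1127 with IgG. Of 23 growth arrest and p53 target genes, 7 were higher by 2-fold or more and 4 lower, among the lower ones cyclin G1, Ccng1, with 3397 with YB-1, 3333 with HuR and 16705 with IgG.

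The cytoskeletal and small calcium-binding proteins formed another high group. Of 21 genes for cytoskeletal actins, tubulins and filaments, 14 were higher by 2-fold or more with YB-1 than with IgG and none lower, and the median was a log2 ratio of 1.46. Beta-actin, Actb, had 123475 normalized counts with YB-1, 625331 with HuR and 32929 with IgG, so it was above IgG and below HuR. Vimentin, Vim, the intermediate filament of myoblasts, had 70360 with YB-1, 37137 with HuR and 17878 with IgG. The one member below IgG was Tuba4a, with 8749 with YB-1, 3660 with HuR and 13683 with IgG. Among 18 S100 proteins and annexins, which bind calcium and membranes, 13 were higher by 2-fold or more and none lower, median 1.29. S100a11 led them, with 16626 with YB-1, 13272 with HuR and 3118 with IgG. Against HuR their median was 0.42.

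Genes that bind actin monomers or branch filaments were mixed, with 7 of 20 higher by 2-fold or more than with IgG and 5 lower. Among all genes 19.6% were higher and 24.6% lower, so the count of lower genes was near the background. Against HuR 1 was higher and 7 lower, beside 13.6% and 16.5% of all genes. Beside Tmsb10, cofilin Cfl1 had 25096 normalized counts with YB-1, 23369 with HuR and 6482 with IgG. Profilin Pfn1 had 34080 with YB-1, 245299 with HuR and 13557 with IgG, a log2 ratio of 1.33 to IgG and -2.85 to HuR. Its paralog Pfn2 had 48.3 with YB-1, 193 with HuR and 2822 with IgG.

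Cell cycle genes were mostly above IgG. Of 36 mitosis and kinetochore genes, 29 were higher by 2-fold or more with YB-1 than with IgG and none lower by 2-fold or more, and the median was a log2 ratio of 1.61. Spc25, a subunit of the kinetochore complex that grips microtubules, had 358 normalized counts with YB-1, 217 with HuR and 48.2 with IgG, 7.43-fold above IgG (4.82 to 12.1). Ube2c, which marks cyclins for destruction at the end of mitosis, had 1704 with YB-1, 4323 with HuR and 310 with IgG. The D cyclins differed: Ccnd3 had 10585 with YB-1, 7929 with HuR and 4204 with IgG, and Ccnd1 had 826 with YB-1, 2964 with HuR and 842 with IgG. Against HuR the list's median was 0.08, with 3 genes higher by 2-fold or more and 4 lower.

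Of 33 DNA replication genes, 17 were higher by 2-fold or more and 1 lower, median 1.04 that became -0.15 when ratios were recentred on ribosomal protein genes. Mcm7, a subunit of the replicative helicase, had 2054 normalized counts with YB-1, 980 with HuR and 631 with IgG. Mcm4, of the same helicase, was the one lower, with 641 with YB-1, 512 with HuR and 1533 with IgG. Prim2, the large primase subunit, had the highest ratio of the list, with 437 with YB-1, 223 with HuR and 64.3 with IgG. Against HuR the replication median was 0.32, with 5 higher and 1 lower. Nucleotide synthesis genes were closer to the centre, with 7 of 24 higher, 1 lower and a median of 0.54, and thymidylate synthase Tyms led with a log2 ratio of 1.82.

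Ribosomal protein mRNAs were high as a class. Of 33 small subunit genes, 23 were higher by 2-fold or more with YB-1 than with IgG and none lower; all 33 had a log2 ratio above 0 on the authors' scaling, with a median of 1.29. Rpsa had 89788 normalized counts with YB-1, 33320 with HuR and 21669 with IgG, and Rps12 had 56483 with YB-1, 14495 with HuR and 8364 with IgG. The lowest, Rps13, had 4957 with YB-1, 3442 with HuR and 4750 with IgG. Of 49 large subunit genes, 30 were higher and 1, Rpl3l, lower, with a median of 1.12 that became -0.08 when ratios were recentred on the ribosomal protein genes of both subunits. How the authors' counting treated reads shared with pseudogenes or paralogs is not stated, so levels of these genes may be affected.

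Against HuR, ribosomal protein mRNAs were also high, with medians of 0.78 for the small and 0.69 for the large subunit beside 0.12 for all genes. At least 2-fold higher with YB-1 than with HuR were 14 and 15 of them, and none was lower by 2-fold or more. Other parts of the translation apparatus stood nearer the centre against IgG. Of 64 initiation and elongation factors, 12 were higher and 11 lower, with a median of 0.27. Eef1a1, which brings tRNA to the ribosome, had 206836 normalized counts with YB-1, 117533 with HuR and 79628 with IgG. Eif3h, a subunit of initiation factor eIF3, had the highest ratio of that list, with 15627 with YB-1, 6403 with HuR and 4282 with IgG. The 76 mitochondrial ribosomal proteins had a median of -0.07, with 3 higher and 9 lower, and the 20 cytosolic aminoacyl-tRNA synthetases one of 0.38.

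The polyubiquitin gene Ubb had 34543 normalized counts with YB-1, 8885 with HuR and 8649 with IgG. It stands in a list of 17 ubiquitin genes and muscle ubiquitin ligases, of which 3 were higher by 2-fold or more and 8 lower, median -0.69. Asb2, a muscle ligase subunit, had 980 with YB-1, 714 with HuR and 9645 with IgG. Proteasome subunits were close to the centre, with a median of 0.30, 3 of 35 higher and 1 lower. Ferritin mRNAs, whose 5' ends carry the iron response element, were both above IgG: Fth1 had 107261 with YB-1, 39365 with HuR and 41793 with IgG, and Ftl1 had 27776, 13657 and 10714.

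**Figure D3:**
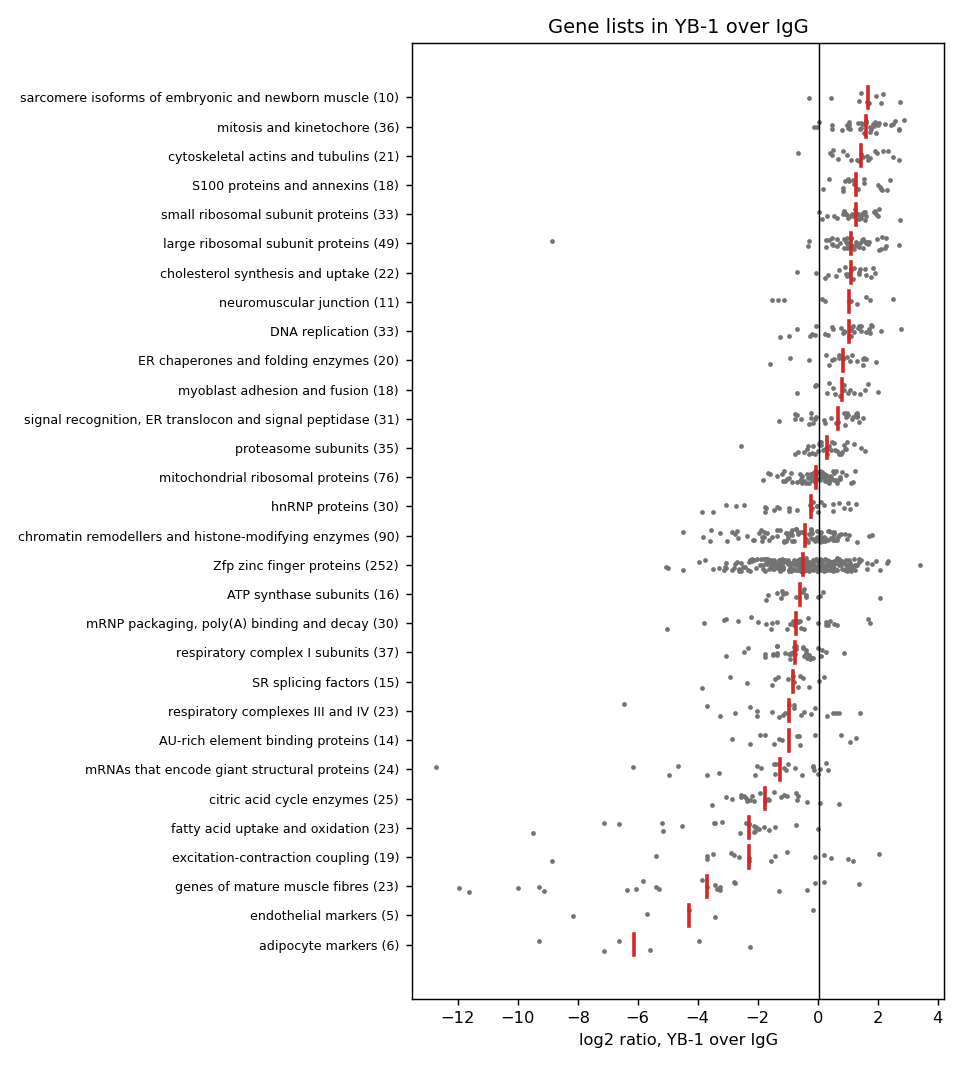
Log2 ratio of YB-1 over IgG (horizontal axis) for the members of 30 gene lists, 1 grey point per gene at 10 or more in YB-1, with the number of genes in brackets, a red tick at the list median and a black line at the all-gene median of 0.04. Medians run from 1.68 for embryonic and newborn sarcomere genes to -3.68 for mature fibre genes and -6.11 for adipocyte markers.

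mRNAs of the secretory route and of sterol synthesis lay above the all-gene median against IgG but not against HuR. Of 20 chaperones and folding enzymes of the endoplasmic reticulum (ER), 8 were higher by 2-fold or more with YB-1 than with IgG and 1 lower, and the median was a log2 ratio of 0.85. The calcium-binding chaperone calreticulin, Calr, had 35735 normalized counts with YB-1, 50213 with HuR and 11763 with IgG. The collagen chaperone Serpinh1 had 23424 with YB-1, 23867 with HuR and 8233 with IgG. The lower one was Dnajb9, a stress-induced cochaperone, with 266 with YB-1, 731 with HuR and 803 with IgG. Of 31 genes of the signal recognition particle, translocon and signal peptidase, 10 were higher and 1 lower, with a median of 0.66. Against HuR the chaperone median was -0.14 and the translocon median 0.05.

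Cholesterol synthesis and uptake had 13 of 22 genes higher by 2-fold or more and none lower, median 1.11 that became -0.08 when ratios were recentred on ribosomal protein genes. Dhcr7, the last enzyme of the pathway, had 1236 normalized counts with YB-1, 3253 with HuR and 330 with IgG. Ebp, a sterol isomerase, had 3694 with YB-1, 1992 with HuR and 1019 with IgG. Against HuR the cholesterol median was 0.09, below the 0.12 of all genes, with 1 higher and 6 lower. Matrix genes were spread, with 14 of 68 higher, 24 lower and a median of -0.38. Biglycan, Bgn, had 44587 with YB-1, 26983 with HuR and 8369 with IgG, whereas the basement membrane collagen Col15a1 had 19.1 with YB-1, 0 with HuR and 2341 with IgG. Among 28 secreted growth factors and binding proteins, 9 were higher and 6 lower, from Igf2 at the top to Hgf, hepatocyte growth factor, with a log2 ratio of -5.75.

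mRNAs of energy metabolism in mitochondria were low against IgG. Of 23 genes of fatty acid uptake and oxidation, 21 were lower by 2-fold or more with YB-1 than with IgG and none higher, and the median was a log2 ratio of -2.28. Hadha, the trifunctional enzyme of beta-oxidation, had 4305 normalized counts with YB-1, 3034 with HuR and 16870 with IgG. The transporter Cd36 had 111 with YB-1, 206 with HuR and 15395 with IgG. The liver-type carnitine transferase Cpt1a was level, with 496 with YB-1, 191 with HuR and 493 with IgG. Of 25 citric acid cycle genes 19 were lower and none higher, with a median of -1.77, and citrate synthase Cs had 7057 with YB-1, 4560 with HuR and 21845 with IgG.

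The respiratory chain was less far down. The median log2 ratio to IgG was -0.74 for 37 complex I subunits, with 12 lower by 2-fold or more and none higher. It was -0.94 for 23 subunits of complexes III and IV, with 11 lower and 1 higher, and -0.60 for 16 ATP synthase genes, with 7 lower and 1 higher. Cox7a1, the muscle and heart isoform of a complex IV subunit, had 42.0 normalized counts with YB-1, 18.1 with HuR and 3694 with IgG, while Cox8a had 6651, 4033 and 2476. Against HuR these 3 lists lay on the high side, with medians of 0.64, 0.70 and 0.55 and no gene lower by 2-fold or more in YB-1. Fatty acid oxidation and citric acid cycle genes had medians of 0.28 and 0.24 against HuR.

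Glycolysis was divided, with 7 of 19 genes higher by 2-fold or more, 5 lower and a median of 0.04. Gapdh had 287728 normalized counts with YB-1, 89770 with HuR and 84875 with IgG. Aldolase Aldoa had 58650 with YB-1, 30151 with HuR and 95699 with IgG, and pyruvate kinase Pkm was level with 41943, 28677 and 40912. The lactate dehydrogenase subunit of oxidative tissue, Ldhb, was 104-fold below IgG (93.7 to 116), with 192 with YB-1, 228 with HuR and 19977 with IgG.

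mRNAs that themselves encode RNA-binding proteins tended to be low in YB-1. Of 14 genes for proteins that bind AU-rich and related elements, 7 were lower by 2-fold or more and 2 higher against IgG, with a median log2 ratio of -0.95. Against HuR 9 were lower and none higher, with a median of -1.29. Tial1, a stress granule protein, had 361 normalized counts with YB-1, 1767 with HuR and 2634 with IgG. Celf2, a regulator of splicing and decay in muscle, had 5333 with YB-1, 22813 with HuR and 7935 with IgG. Ptbp1, the pyrimidine tract binding protein, was on the high side with 3059 with YB-1, 2022 with HuR and 1260 with IgG.

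SR splicing factors had 6 of 15 lower and none higher, with a median of -0.83 to IgG and -0.71 to HuR. Srsf1 had 1465 normalized counts with YB-1, 10163 with HuR and 21237 with IgG, 14.5-fold below IgG (13.9 to 15.1). hnRNP genes had 11 of 30 lower and 3 higher, with a median of -0.23 to IgG and -0.55 to HuR. Core spliceosome genes had a median of 0.61, above that of all genes. Of these 40, 8 were higher, near the 19.6% of all genes, and 4 lower, beside 24.6%. Against HuR their median was 0.02, with 4 higher and 9 lower, beside 13.6% and 16.5% of all genes. Snrpd2, of the ring that binds the spliceosomal RNAs, had 3920 with YB-1, 1180 with HuR and 1078 with IgG.

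Partners of YB-1 in mRNA particles were lower on balance, with 12 of 30 genes for mRNP packaging, poly(A) binding and decay lower by 2-fold or more, 2 higher and a median of -0.73. Pabpc1, the cytoplasmic poly(A) binding protein and itself a reported YB-1 target, had 3616 normalized counts with YB-1, 5322 with HuR and 50286 with IgG, 13.9-fold below IgG (13.5 to 14.3). Igf2bp2, which binds fetal growth mRNAs, had 1238 with YB-1, 2749 with HuR and 390 with IgG. Of the 6 cold-shock domain genes at 10 or more, 1 was higher by 2-fold or more and 1 lower. Csdc2 had 1492 with YB-1, 1067 with HuR and 404 with IgG, while Csda, the paralog also called YB-3, had 13766, 18535 and 23110. Of 18 listed mRNAs that the literature names as bound or regulated by YB-1, 17 were measured and 14 reached 10 in YB-1. The 3 left out were at 0 in YB-1, with 9.18 to 41.3 in IgG. Against HuR the median of the 14 was -0.62, with 1 higher by 2-fold or more and 5 lower. Against IgG 5 of the 14 were higher by 2-fold or more and 5 lower, with a median of 0.00. Snai1, the factor of epithelial-mesenchymal transition whose translation YB-1 is known to promote, had the highest ratio among those with a mean of 100 or more, with 477 with YB-1, 275 with HuR and 101 with IgG.

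Among long noncoding RNAs, Malat1, which resides in nuclear speckles, had 2205 normalized counts with YB-1, 8919 with HuR and 32594 with IgG. Neat1, the scaffold of paraspeckles, had 549 with YB-1, 609 with HuR and 30985 with IgG, 56.4-fold below IgG (52.9 to 60.1). H19, in the same list and mainly cytoplasmic, stood at the opposite end, and of the 8 members at 10 or more 3 were higher by 2-fold or more and 3 lower. Of 90 chromatin remodellers and histone-modifying enzymes, 31 were lower by 2-fold or more and 4 higher, with a median log2 ratio of -0.43, and of 252 Zfp zinc finger genes 85 were lower and 27 higher, with a median of -0.47. The remodeller subunit Smarcb1 had 4275 with YB-1, 1650 with HuR and 1214 with IgG, and the ATPase Smarca2 had 66.4, 257 and 1503.

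The remaining lists are given by their counts against IgG, beside 19.6% higher and 24.6% lower among all genes. Solute carriers had 33 of 170 higher and 45 lower, Rab GTPases 10 of 42 and 12, ubiquitin-conjugating enzymes 5 of 29 and 7, and histone genes 5 of 24 and 4. Integrins and growth factor receptors had 5 of 42 higher and 14 lower. Immediate early genes had 8 of 25 higher and 2 lower, with Myc, the growth transcription factor, at 572 normalized counts with YB-1, 1137 with HuR and 156 with IgG. RNA polymerase II and Mediator subunits had 14 of 42 higher and 3 lower, lysosome and autophagy genes 8 of 30 and 1, and redox and metal genes 11 of 30 and 7. Cytosolic chaperones had 3 of 27 higher and 4 lower, mitochondrial import genes 1 of 27 and 3, nuclear pore genes and importins 3 of 42 and 14, and host genes of small nucleolar RNAs 2 of 10 and 3. Among markers of other cells at 10 or more in YB-1, fibroblast and tendon markers had 1 of 11 higher and 8 lower, and neuronal and glial markers 3 of 7 and 1. Smooth muscle and pericyte markers had 2 of 9 and none lower, and epithelial and liver markers 2 of 3 and none lower. Left out of these counts for being under 10 in YB-1 were 4 smooth muscle markers, with 564 to 6095 in IgG. So were 6 epithelial markers (2.29 to 369 in IgG), 3 fibroblast markers (278 to 2141) and 8 neuronal markers (4.59 to 966). At 10 or more in YB-1, no endothelial or adipocyte marker was higher, and 4 of 5 and 6 of 6 were lower.

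Transcripts with a high ratio to IgG tended to be short and rich in G and C. Over the 11538 protein-coding genes with an annotated transcript, the median log2 ratio by quintiles of transcript length went 0.47, 0.27, 0.10, -0.14 and -0.56, in order of increasing length. At least 2-fold higher were 29.2% of the shortest quintile and 9.58% of the longest, and lower by 2-fold or more 15.5% and 38.6%. By quintiles of GC content the medians were -0.79, -0.21, 0.17, 0.34 and 0.46, in order of increasing GC. Across genes, Spearman's rho with the ratio to IgG was -0.252 for transcript length, -0.189 for 3' UTR length, -0.187 for coding length, -0.0437 for 5' UTR length and 0.299 for GC content. Genes within a library are not independent replicates, and all points share the same 2 libraries, so these are descriptions. The ratio of YB-1 to HuR shares the YB-1 library, and its values, in the same order, were -0.270, -0.317, -0.0738, -0.101 and 0.357. Length and GC content overlap as traits: rho with GC content was -0.261 for transcript length and -0.391 for 3' UTR length. Within quintiles of GC content, rho of transcript length with the ratio to IgG was between -0.215 and -0.171.

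The density of CATC, the motif printed above, was counted per kilobase of whole transcript on the mRNA strand. Its rho with the ratio to IgG was 0.157, and the medians by quintiles of density were -0.17, -0.17, -0.04, 0.13 and 0.47, so the 2 lowest quintiles had the same median and the highest lay apart. Density of CATC itself had a rho of 0.268 with GC content. Within quintiles of GC content its rho with the ratio to IgG was between 0.0462 and 0.110. All 12 orders of the letters A, C, C and T were counted in the same way, overlaps between orders included. CATC had the highest rho with the ratio to IgG among them, ACCT followed with 0.154, and ACTC was lowest with 0.0365. For the ratio to HuR, CATC had 0.234, ACCT 0.206 and ACTC 0.0463. These are weak relations. Xirp2, at the bottom of the range, carried 4.52 CATC per kb and Tmsb10, at the top, 4.35.

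**Figure D4:**
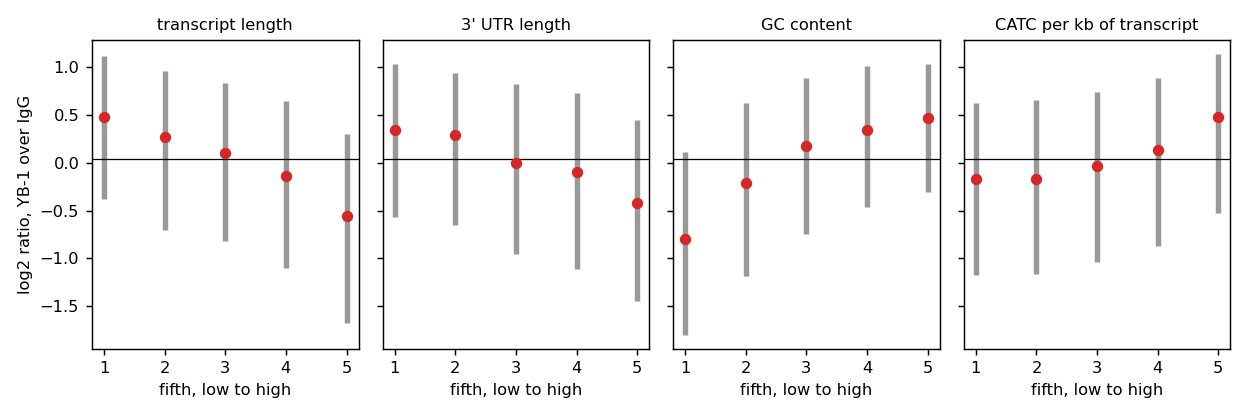
Median log2 ratio of YB-1 over IgG (red points) with quartiles (grey bars) in quintiles of transcript length, 3' UTR length, GC content and CATC per kb, low to high, for 11538 protein-coding genes; the black line is the all-gene median of 0.04. The medians are lower at greater length, -0.56 in the longest quintile, and higher at greater GC content, 0.46 in the highest quintile.

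Placed side by side, the ratios of YB-1 to IgG and to HuR share the YB-1 library and place several groups differently. Ribosomal proteins, cytoskeletal genes and embryonic sarcomere genes had medians above those of all genes in both ratios, with 0.80 for cytoskeletal and 0.70 for embryonic and newborn sarcomere genes against HuR. By counts against HuR, 4 of 21 cytoskeletal genes were higher by 2-fold or more and 3 lower. Of the 10 embryonic and newborn sarcomere genes 1 was higher and none lower. Both lists were thus near or under the 13.6% higher and 16.5% lower of all genes, unlike the ribosomal proteins. Mitosis genes had medians of 1.61 against IgG and 0.08 against HuR, and ER chaperones 0.85 and -0.14. Mature fibre genes had -3.68 against IgG and 0.26 against HuR. Proteins that bind AU-rich elements and SR factors were low in both.

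**Figure D5:**
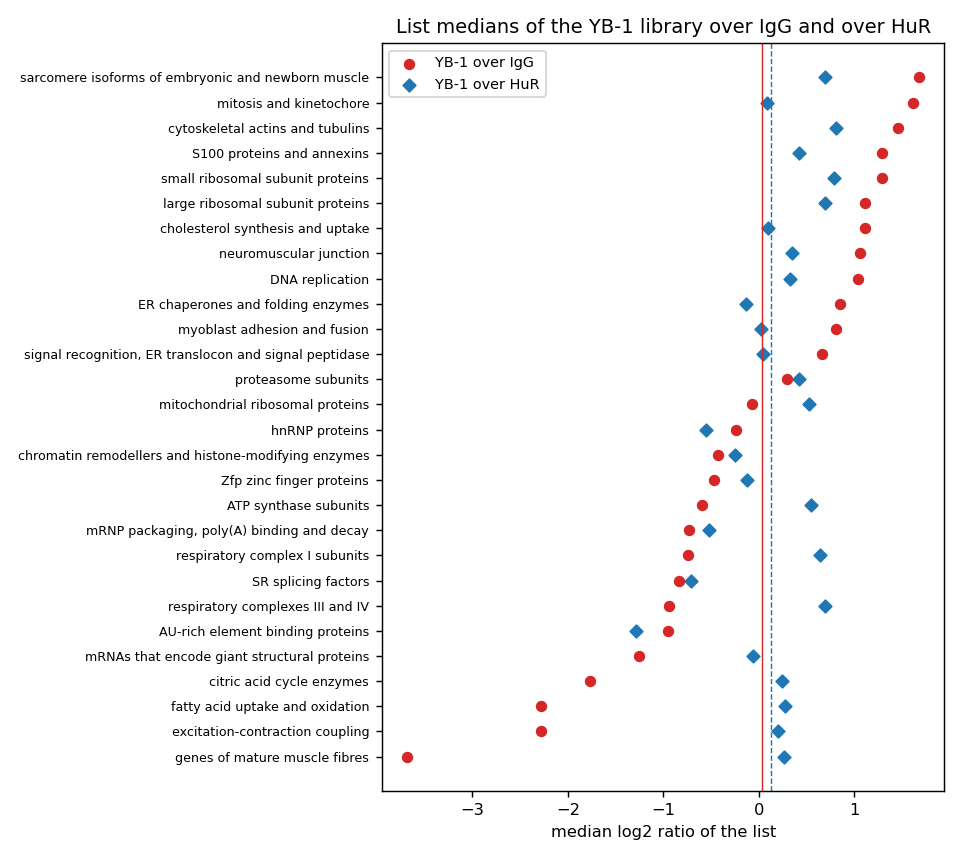
Median log2 ratio (horizontal axis) of 28 gene lists for YB-1 over IgG (red circles) and YB-1 over HuR (blue diamonds), with the all-gene medians of 0.04 (solid) and 0.12 (dashed) as vertical lines. The 2 symbols lie far apart for mature fibre genes, at -3.68 and 0.26, and close together for SR splicing factors, at -0.83 and -0.71.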

How the data were processed

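Per the submitters' processing notes, reads were handled with TopHat2 2.0.10, HTSeq 0.6.1 and DESeq2 on mm10 (GRCm38); parameters and strand use are not stated there, so a gene and an overlapping or antisense gene cannot be told apart. The deposited signal is a read count per gene that the authors divided by 1 size factor per library, for 3 libraries together. All values (100%, within 0.01 read) were whole multiples of 1 read, so whole reads were recovered. No count model was run, since 1 library per antibody leaves no spread to fit. The authors' own fold changes and p-values were not used.

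Of 15428 rows, 25 that carry a date where a symbol should stand were left out. A library at 0 was set to 3 reads (1.59 normalized counts in YB-1, 2.59 in HuR, 6.88 in IgG), which makes such a ratio a bound, and intervals are exact Clopper-Pearson on the 2 read counts, which are not independent molecules. Lists are described by counts and medians beside those of all genes. Members and all 63 lists were chosen with earlier results of these data known. Named genes are Ybx1, Elavl1 and Myog, the 10 highest YB-1 levels, the 15 highest and 15 lowest ratios at a mean of 500 or more, and in each list the 3 highest levels and the 2 extreme ratios at a mean of 100 or more; a gene named outside this rule is said to be so. Some genes that the rule picks are not reported here. One GENCODE M21 transcript per gene gave lengths, GC and motifs, and 11817 genes (99.4%) matched by symbol. Alternatives changed the scaling, the filter, the floor and the depth. The script was tested on simulated data. Python 3.11.15, numpy 2.4.6, pandas 2.3.3 and scipy 1.17.1 were used.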

Additional observations from a re-analysis of the deposited data

Results flagged for a closer look

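The 25 rows named by a date, which no comparison used, held 0.190% of the reads of the YB-1 library (exact 95% interval 0.189 to 0.191) and 0.304% of those of the HuR library (0.302 to 0.306), against 0.123% in the IgG library (0.121 to 0.126). They drew attention because data outside the main measurement carried a larger share than in the control library. The genes behind the dates are not reported here.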

How the results depend on the processing

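Recentring on ribosomal protein genes moved most values: genes higher by 2-fold or more numbered 311 and lower 6502, higher genes made up 4.56% of both (44.3% as reported), and the all-gene median was -1.16. The medians of DNA replication (-0.15), cholesterol synthesis (-0.081), epithelial and liver markers (-0.050), large ribosomal subunit (-0.075) and neuromuscular junction genes (-0.13) then changed sign, by the construction of that scale. Scaling to total reads gave an all-gene median of 0.27 and a share of 56.4%, and centring on the median set it to 0. With no filter the lower genes numbered 5038 (median -0.25, share 31.9%), with a mean of 10 or more over YB-1 and IgG 4435 (-0.20, 33.4%), since these filters admit genes of the IgG library alone. The median was 0.10 at 50 or more in YB-1 and -0.0069 with 3 reads added. The cause of the other moves was not tested. The 4 other scalings move all genes alike, so no list can change side of the all-gene median under them. With the floor of 1 read, all 62 lists with a median kept their side, and 9, 7, 8, 3 and 4 lists changed side with no filter, 50 or more in YB-1, the mean filter, 3 reads added and thinning to the IgG total. No paired analysis was possible because there was 1 library per antibody. Depth limits genes of low count most: Spc25, with 48.2 normalized counts in IgG, has an interval from 4.82 to 12.1.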

Other observations

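The 3516 genes under 10 normalized counts in the YB-1 library included 2884 at 0 there. Of the 3516, 1958 had 10 or more in IgG, 585 had 100 or more and 81 had 1000 or more. Together they held 0.0161% of YB-1 reads, 0.0948% of HuR reads and 2.16% of IgG reads.

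The ribosomal RNA precursor Rn45s, singled out after its values were seen, took 0.722% of YB-1 reads, 0.256% in HuR and 4.76% in IgG. Its level was 150113 normalized counts with YB-1, 54682 with HuR and 1161560 with IgG, a log2 ratio of YB-1 to IgG of -2.95. Among the 64 antisense and 63 lincRNA genes at 10 or more in YB-1, the medians to IgG were 0.27 and 0.16, and among 26 processed pseudogenes the median was 0.88, of which 12 were higher by 2-fold or more and 3 lower. The symbols of these pseudogenes can draw reads from the genes they copy.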
